A study of Mus musculus with 23 samples.

Results

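The comparison described here sets gastrocnemius muscle of emerin KO (knockout) mice on day 4 after an injection against that of lamin A/C KO mice on the same day. It rests on 6 of the 23 arrays of the series, 3 of each knockout, chosen by the genotype and the day in their titles, and it covers every gene bright enough to be tested. The study followed degeneration and regeneration of the muscle in stages, with RNA measured on Affymetrix arrays. Beside the 3 emerin KO and 3 lamin A/C KO arrays of day 4 stand 2 control arrays of that day, 2 emerin KO and 3 lamin A/C KO arrays of day 0, and 3 of each knockout on day 3. The titles name the controls as those of the lamin A line, so the emerin line has no control of its own here, and a difference in background between the lines cannot be told apart from the genotypes. The lamin A/C KO arrays of day 0 are described as taken 0 days after injection and the emerin KO ones as not injected. The deleted part of each gene, the agent injected, and the strain, age and sex of the mice are not given in the sources used here. The labels do not say whether replicate arrays are of different mice, so p-values measure only the spread between these samples.

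Emerin and lamins A and C are proteins of the inner face of the nuclear envelope. Lamins A and C form filaments that line it, and emerin is a membrane protein held there by binding to them. Mutations in the gene of either cause Emery-Dreifuss muscular dystrophy, in which skeletal muscle wastes and the heart conducts poorly. After an injury, dead myofibers are cleared by macrophages, satellite cells divide and fuse into new fibers, and fibroblasts lay down a matrix that is later remodelled. Myofibers without a nerve contact and newly formed ones carry the fetal acetylcholine receptor and embryonic forms of the contractile proteins.

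The day 4 arrays were of muscle by their markers. Creatine kinase (Ckm) had a signal of 11330 to 13230 on the emerin KO arrays and 10910 to 15070 on the lamin A/C KO arrays. Skeletal actin (Acta1) had 16800 to 20750 in emerin KO and 15220 to 19160 in lamin A/C KO. Of the defining markers of other cell types, those of macrophages were bright on all 6 arrays, with Csf1r at 9759 to 11740 in emerin KO and 7734 to 8364 in lamin A/C KO. The T cell markers Cd3e and Cd3g lay under 100, the minimum used here for a measured signal, on all 6. RNA quality differed between the groups. The ratio of the 3' to the 5' signal of Gapdh, which rises as RNA breaks or is copied incompletely, was 2.89, 1.40 and 5.30 on emerin KO replicates 1, 2 and 3, against 0.888, 0.822 and 0.873 on the lamin A/C KO arrays. The same ratio of Actb was 1.30, 1.19 and 1.41 in emerin KO, against 1.18, 1.11 and 0.989 in lamin A/C KO. The groups did not overlap in either ratio, and the control arrays of day 4 had 0.932 and 1.23 for Gapdh. Because the ratio moves with the genotype, gene groups below are also given on each emerin KO array, and key genes on replicate 2 alone, the array with the lowest ratio of the 3. A p-value on replicate 2 alone takes its spread wholly from the arrays of the other groups and assumes that this single array varies like them, so it holds no emerin KO replicate error of day 4.

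**Figure D1:**
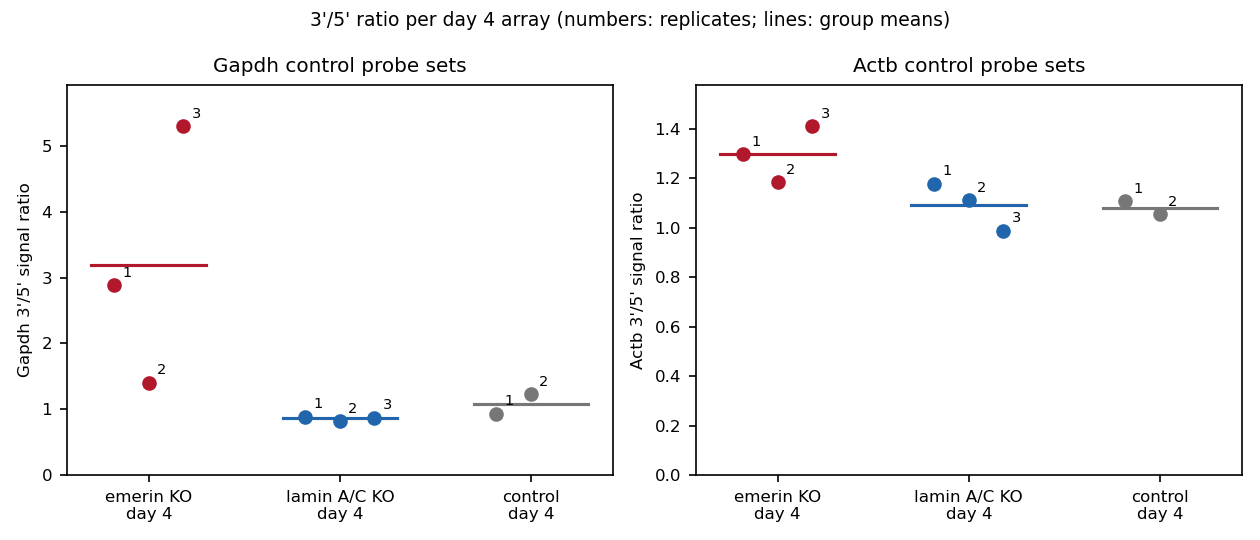
Ratio of 3' to 5' signal of the Gapdh (left) and Actb (right) control probe sets on each day 4 array, with a point per array, its replicate number, and a line at the group mean. The 3 emerin KO arrays lie above all lamin A/C KO arrays in both panels, and emerin KO replicate 2, with a Gapdh ratio of 1.40, lies nearest to them.

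Of 11164 genes tested, 938 were higher in emerin KO than in lamin A/C KO muscle and 895 were lower, at an adjusted p under 0.05 (limma, all 9 groups in 1 model), which is 8.4% and 8.02% of the genes. Among them 134 were higher by at least 2-fold (1.2%) and 261 were lower by that much (2.34%). Of the calls, 900 higher genes (8.06%) and 818 lower genes (7.33%) had no overlap between the arrays of the knockouts. Lack of overlap was common: among all genes tested, called or not, 2326 (20.8%) had it in the higher direction and 1540 (13.8%) in the lower one. The median log2 difference over all genes tested was 0.09. On the 3 emerin KO arrays taken singly, the median log2 difference of the 938 genes from the lamin A/C KO mean was 0.719, 0.544 and 0.811 on replicates 1, 2 and 3. That of the 895 genes was -0.849, -0.479 and -1.05. Replicate 2 was thus the nearest of the 3 to lamin A/C KO in both directions: it held the smallest difference for 84.7% of the lower genes and 68.8% of the higher ones, against 54.6% of all genes tested. With replicate 2 as the only emerin KO array of day 4, all 938 higher genes and 892 of the 895 lower genes had the same sign, and 13 genes were called higher and 26 lower. When the Gapdh ratio was a covariate over all 23 arrays, 903 and 770 had the same sign, and 5 genes were called higher and 8 lower. The part of the ratio in the other calls was not tested. Replicate 2 was among the arrays behind the 938 and 895 calls, so its agreement in sign was largely fixed by the selection of the genes. The covariate fit used all the arrays behind these calls, so its agreement in sign is not independent of that selection either.

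**Figure D2:**
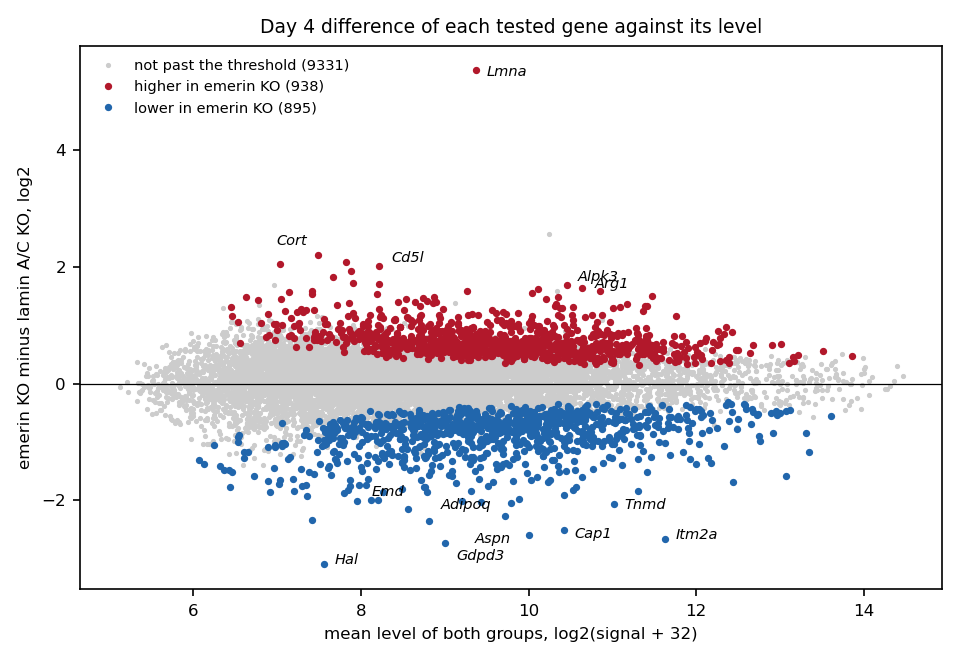
Log2 difference of emerin KO minus lamin A/C KO on day 4 (vertical axis) against the mean level of both groups, log2(signal + 32) (horizontal axis), with a point per tested gene. The 938 higher genes are red, the 895 lower genes are blue and the others grey; Lmna lies far above every other gene.

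The targeted genes were each low in their own knockout. Lmna, read by its brightest probe set, had 3744, 4499 and 4431 in emerin KO, against 60.2, 71.1 and 81.0 in lamin A/C KO. It was at least 42.2-fold higher in emerin KO, with lamin A/C KO counted at the minimum signal of 100 (adjusted p = 7.5e-15, limma). The next brightest Lmna probe set had 2464, 2450.2 and 2638 in emerin KO against 733, 706 and 620.4 in lamin A/C KO, so a signal of Lmna sequence remained in lamin A/C KO muscle. The dimmest went the other way, with 71.3, 17.6 and 39.1 in emerin KO against 223, 266 and 252 in lamin A/C KO (-1.96 ± 0.41 on the log2 scale, adjusted p = 0.0034). The fourth did not pass the threshold (-0.23 ± 0.31). Emd, the gene of emerin, had 239, 169 and 213 in emerin KO, against 684, 680.0 and 770.0 in lamin A/C KO, a log2 difference of -1.65 ± 0.24 (adjusted p = 0.00021). The arrays of the knockouts did not overlap for either gene, and on emerin KO replicate 2 alone the Emd difference was -1.89 (adjusted p = 0.018). What part of each gene these probe sets read, relative to the deleted part, is not known here. Among the 20 measured genes of the nuclear envelope and lamina, 6 were higher and 2 lower (30% and 10%, against 8.4% and 8.02% of all genes tested). The targeted Lmna is counted among the 6 and Emd among the 2. Beside the targeted genes, Lemd2, which encodes a LEM domain protein of the inner nuclear membrane like emerin, differed by 0.75 ± 0.19. Icmt, the methyltransferase that acts on prelamin A, differed by 0.63 ± 0.19. On emerin KO replicate 2 alone Lemd2 differed by 0.53 and Icmt by 0.38.

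The 12 largest rises, taken from called genes whose arrays did not overlap between the knockouts, held genes of macrophages and of muscle. Arg1, the arginase of macrophages that turns arginine into ornithine, had 2711, 1769.6 and 3973 in emerin KO, against 1105, 611 and 874 in lamin A/C KO, a log2 difference of 1.63 ± 0.35 (adjusted p = 0.0037, limma). Cd5l, a protein that macrophages secrete and that keeps them from apoptosis, had 549, 487 and 671 in emerin KO, against 105, 124 and 119 in lamin A/C KO (2.01 ± 0.22, adjusted p = 5.6e-06). Aoah, the enzyme that removes fatty acids from bacterial lipopolysaccharide, had 228, 222 and 240.2 in emerin KO, against 21.4, 56.3 and 21.5 in lamin A/C KO, and was at least 2.30-fold higher (adjusted p = 0.0013). The lack of overlap in these 3 genes was required by the choice of the 12 and is not a further result. On emerin KO replicate 2 alone Cd5l differed by 1.81 (adjusted p = 0.0102) and Arg1 by 1.05 (adjusted p = 0.46). Alpk3, an alpha-kinase of heart and skeletal muscle, had 2550.3, 2936 and 2039.9 in emerin KO, against 744, 681 and 822 in lamin A/C KO (1.69 ± 0.19, adjusted p = 1.3e-05), and its highest value was on replicate 2. Ankrd2, a stretch-responsive ankyrin repeat protein of muscle, had 505, 528 and 286 in emerin KO, against 175, 11.7 and 276 in lamin A/C KO (1.70 ± 0.49, adjusted p = 0.022). For Ankrd2, 1 lamin A/C KO array lay under the minimum, and the arrays of the groups lay close together at 286 in emerin KO and 276 in lamin A/C KO. The others were Cort, a neuropeptide related to somatostatin (at least 3.55-fold), Cyp4f18, a cytochrome P450 of leukotriene breakdown (at least 4.31-fold), and Slfn8 of the Schlafen family (2.09 ± 0.33). Further down came Trim34a, of a family of interferon-induced tripartite motif proteins (1.82 ± 0.33), Id4, an inhibitor of basic helix-loop-helix factors (1.73 ± 0.32), and the small GTPase Rap2b (1.61 ± 0.24). Slfn8 and Trim34a lay under the minimum on 2 of the 3 lamin A/C KO arrays and Id4 on 1. A dim second probe set of Trim34a had the opposite sign (-0.68, adjusted p = 0.091).

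The 12 largest falls, also taken from called genes without overlap, held genes of the matrix, the tendon and fat beside genes of the sarcoplasmic reticulum and mitochondria. Aspn, which encodes asporin, a small leucine-rich proteoglycan that binds collagen and TGF-beta, had 380.1, 399.8 and 376 in emerin KO, against 2350.5, 2542 and 2588 in lamin A/C KO (-2.60 ± 0.20, adjusted p = 5.4e-08, limma). Cap1, an actin-monomer-binding protein, had 722, 412 and 511 in emerin KO, against 3036, 3063 and 3471 in lamin A/C KO (-2.50 ± 0.17, adjusted p = 8e-09). Gdpd3, a lysophospholipase, had 146, 196 and 160.5 in emerin KO, against 1212, 1145 and 1536 in lamin A/C KO (-2.73 ± 0.19, adjusted p = 8e-09). For these 3 genes the emerin KO arrays lay close together and far from lamin A/C KO, with replicate 2 differing by -2.55, -2.86 and -2.53 in the same order of genes. Itm2a, a membrane protein of differentiating muscle and cartilage, had 1012, 1980.3 and 811 in emerin KO, against 6769, 8869.9 and 7419.6 in lamin A/C KO (-2.66 ± 0.26, adjusted p = 2.5e-06). Serpina3n, a serine protease inhibitor, had 421, 322 and 305 in emerin KO, against 2199, 1638 and 1609.6 in lamin A/C KO (-2.27 ± 0.34, adjusted p = 0.00022). Hal, the first enzyme of histidine breakdown, lay under the minimum on every emerin KO array and had 422, 464 and 665 in lamin A/C KO, at least 5.17-fold lower in emerin KO (adjusted p = 0.00052). In another set of falls the emerin KO arrays were spread widely, with replicate 2 the highest of them. Mpc1, a subunit of the mitochondrial pyruvate carrier, had 231, 627 and 149 in emerin KO, against 1162, 1383 and 1240.2 in lamin A/C KO (-2.03 ± 0.30). Tmem38a, a cation channel of the sarcoplasmic reticulum, had 106, 466 and 35.0 in emerin KO, against 878, 863 and 735 in lamin A/C KO (-2.36 ± 0.53). Golim4, a Golgi membrane protein, had 106, 340.2 and 50.8 in emerin KO, against 756, 651 and 659 in lamin A/C KO (-2.15 ± 0.35). Med21, a subunit of the Mediator complex, had 16.8, 128 and 6.48 in emerin KO, against 210.1, 286 and 471 in lamin A/C KO (-2.34 ± 0.45), with 2 emerin KO arrays under the minimum, as was 1 for Tmem38a and 1 for Golim4. On replicate 2 alone these 4 genes differed by -0.97, -0.78, -0.95 and -1.08, with adjusted p = 0.14, 0.74, 0.22 and 0.497. The remaining falls, Tnmd and Adipoq, are given with the tendon and fat genes.

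**Figure D3:**
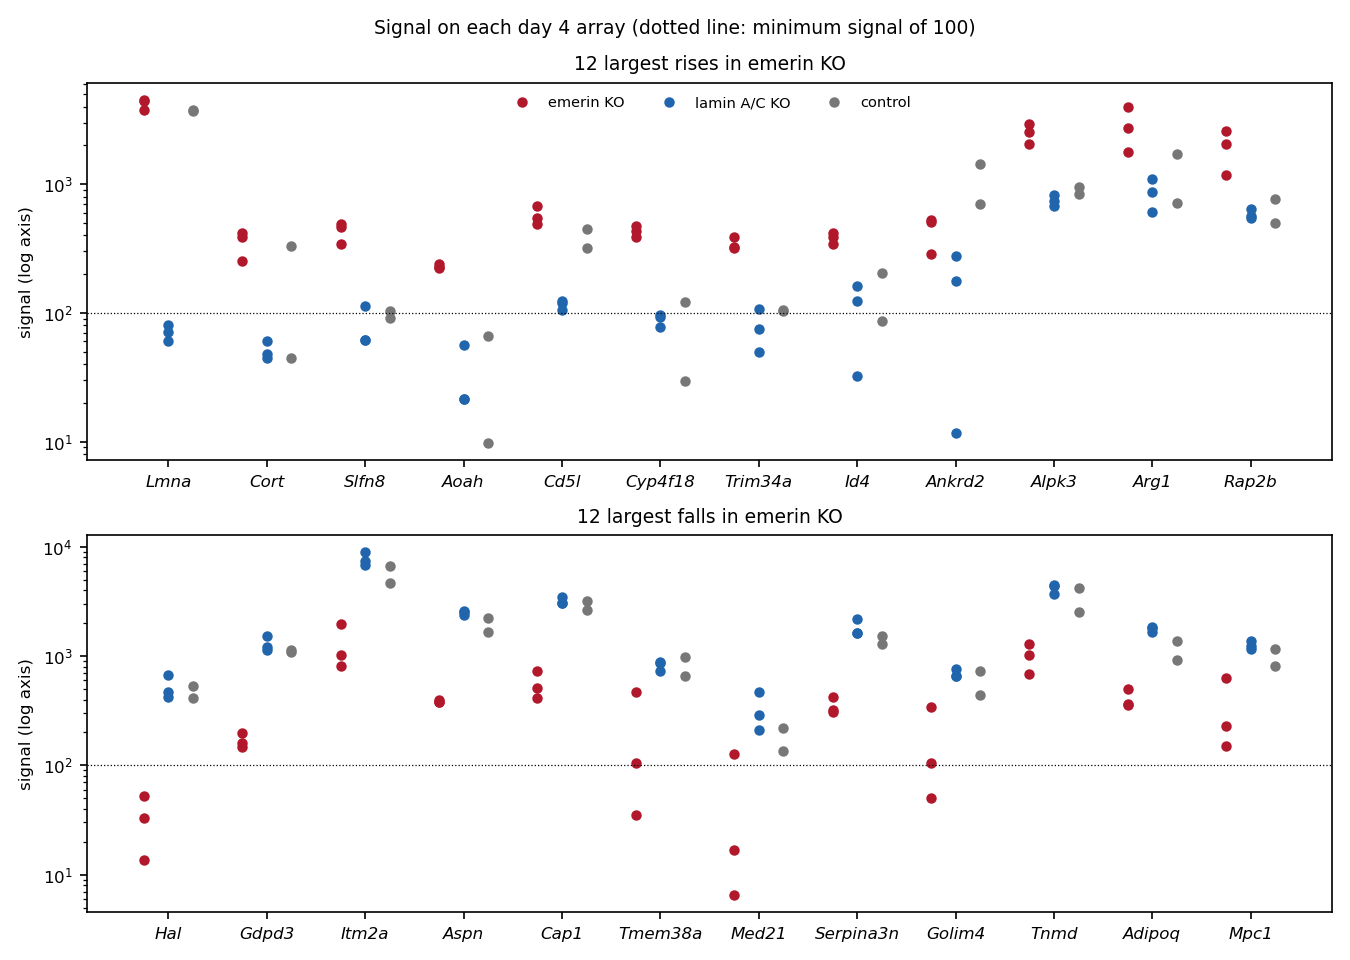
Signal (log axis) on each day 4 array for the 12 genes with the largest rise (top) and the 12 with the largest fall (bottom) in emerin KO against lamin A/C KO, each array a point: emerin KO red, lamin A/C KO blue, control grey, with the minimum signal of 100 dotted. Both sets were taken from called genes whose arrays did not overlap between the knockouts. For Aspn, Gdpd3, Cap1 and Adipoq the emerin KO arrays lie together below both other groups, while for Tmem38a, Med21, Golim4 and Mpc1 they are spread.

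Genes of the extracellular matrix were low in emerin KO muscle. Of 57 measured genes of matrix and fibroblasts, 15 were lower and 1 higher (26.3% and 1.75%, against 8.02% and 8.4% of all genes tested), and the list's median log2 difference was -0.21. After Aspn, the largest fall was in Mfap4, a protein of elastic microfibrils, with 349, 677 and 342 in emerin KO, against 1692, 1778 and 1943 in lamin A/C KO (-1.98 ± 0.43, adjusted p = 0.0037, limma). Thbs1, the matricellular thrombospondin that activates latent TGF-beta, had 611, 1316 and 439.9 in emerin KO, against 2391, 3226 and 2285 in lamin A/C KO (-1.83 ± 0.36, adjusted p = 0.00201). Col12a1, a collagen that sits on the surface of collagen I fibrils, had 454, 463 and 203 in emerin KO, against 1099, 1687 and 1074 in lamin A/C KO (-1.75 ± 0.33, adjusted p = 0.0013). Each of these genes was lower on every emerin KO array than on any lamin A/C KO array. Among abundant members chosen after their values were seen, periostin (Postn), which fibroblasts secrete during repair, had 4238, 6901 and 3869 in emerin KO, against 14795, 15358 and 13669 in lamin A/C KO (-1.59 ± 0.20). Lumican (Lum), which spaces collagen fibrils, differed by -1.60 ± 0.21, and tenascin C (Tnc), of provisional matrix, by -1.28 ± 0.21. The median of the whole list was -0.265, -0.269 and -0.156 on emerin KO replicates 1, 2 and 3. The 15 called genes had medians of -1.41, -0.967 and -1.70, nearest to lamin A/C KO on replicate 2, the array of lowest Gapdh ratio. The part of the ratio in these differences was not tested. With the Gapdh ratio as a covariate 1 member was called lower, with the Actb ratio 9, and with replicate 2 as the only emerin KO array 1. In bulk muscle, fewer cells of a type and less RNA per cell cannot be told apart.

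Genes of TGF-beta and Wnt signaling, which drive and restrain fibroblasts in repair, held 11 lower and 2 higher of 34 measured (32.4% and 5.88%), with a median of -0.12. They share Thbs1 with the matrix list. Among receptors, Acvr1, a type I receptor of bone morphogenetic proteins and activins, had 296, 489.9 and 275 in emerin KO, against 816, 778 and 891 in lamin A/C KO (-1.20 ± 0.19, adjusted p = 0.00036, limma). A dimmer Acvr1 probe set had the opposite sign (0.53, adjusted p = 0.37). Among secreted modulators, Dkk3, of the Dickkopf family, had 171, 64.1 and 185 in emerin KO, against 438, 272 and 466 in lamin A/C KO (-1.36 ± 0.32, adjusted p = 0.0062). Frzb, a Wnt antagonist, lay under the minimum on every emerin KO array, at least 1.41-fold lower (adjusted p = 0.0045). The arrays of the knockouts did not overlap for these genes. The median of the list was -0.217 on replicate 2, against -0.0509 and -0.0774 on replicates 1 and 3. The 11 lower genes went the other way, with medians of -0.716 on replicate 2 and -0.92 and -1.03 on replicates 1 and 3. On replicate 2 alone Acvr1 differed by -0.72 (adjusted p = 0.22) and Dkk3 by -2.11 (adjusted p = 0.025).

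The tendon marker Tnmd, which encodes tenomodulin, had 1293, 1017 and 687 in emerin KO, against 4429, 4382 and 3721 in lamin A/C KO (-2.07 ± 0.31, adjusted p = 0.00022, limma). Of 15 measured genes of tenocytes and cartilage matrix, 3 were lower and 0 higher (20% and 0%, against 8.02% and 8.4% of all genes tested). The median was -0.46. The other members called were Prg4, the lubricin of joint and tendon surfaces (-1.06 ± 0.34), and Col2a1, the collagen of cartilage (-0.77 ± 0.21), while Scx, the transcription factor of the tendon lineage, did not pass (-0.24 ± 0.20). The list's median on emerin KO replicate 2 was -0.719, against -0.0982 and -0.177 on replicates 1 and 3. Its summed signal was 6906 on replicate 2, against 13421 and 11554 on replicates 1 and 3 and 13809 to 20775 in lamin A/C KO. With replicate 2 as the only emerin KO array Tnmd and Col2a1 stayed called lower, and Prg4 did not (adjusted p = 0.31). No member was called when the Gapdh ratio was a covariate.

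Of 18 measured adipocyte genes 4 were lower and 0 higher (22.2% and 0%), with a list median of -0.01. Adipoq, which encodes the hormone adiponectin made by fat cells, had 494, 359.7 and 365 in emerin KO, against 1798, 1828 and 1659.8 in lamin A/C KO (-2.05 ± 0.21, adjusted p = 4.2e-06, limma). Car3, the carbonic anhydrase abundant in fat cells and in slow fibers, had 3069, 1816 and 2494 in emerin KO, against 6959, 5579.9 and 5487 in lamin A/C KO (-1.30 ± 0.18, adjusted p = 0.00014). Scd1, a desaturase of fatty acid synthesis, had 1394, 1154 and 1447 in emerin KO, against 2986, 2752 and 2248 in lamin A/C KO (-0.98 ± 0.23). Fabp4, the fatty acid carrier of fat cells and capillaries, had 3166, 2762 and 3354 in emerin KO, against 4856, 4512 and 4194 in lamin A/C KO (-0.54 ± 0.13). The arrays did not overlap for any of the 4, and each was lowest on emerin KO replicate 2, where Adipoq differed by -2.19 and Car3 by -1.70. These 2 genes were also called with the Gapdh ratio as a covariate, at -1.90 (adjusted p = 0.0301) and -1.49 (adjusted p = 0.045). A dimmer second probe set of Fabp4 differed by 0.03.

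Genes of DNA synthesis and cell division were high in emerin KO muscle. Of 41 measured genes of DNA replication 11 were higher and 0 lower (26.8% against 8.4% of all genes tested), with a median log2 difference of 0.37. Of 51 genes of mitosis 10 were higher and 0 lower (19.6%), with a median of 0.24. Fen1, the flap endonuclease that trims Okazaki fragments, had 3244, 2666 and 3670.1 in emerin KO, against 1143, 1291 and 1379 in lamin A/C KO (1.30 ± 0.39, adjusted p = 0.026, limma). Uhrf1, which carries DNA methylation through replication, had 993, 799 and 805 in emerin KO, against 489, 327 and 485 in lamin A/C KO (0.96 ± 0.22). The ligase Lig1, which joins Okazaki fragments, had 1037, 683 and 995 in emerin KO, against 562, 412 and 430.2 in lamin A/C KO (0.90 ± 0.24). Rpa2, a subunit of the single-strand binding protein, differed by 0.98 ± 0.22, but a dimmer Rpa2 probe set went the other way (-0.84, adjusted p = 0.037). A dimmer one of Uhrf1 differed by -0.29 (adjusted p = 0.54). Among mitotic genes, Plk1, the polo-like kinase, had 847, 661 and 945 in emerin KO, against 406, 494 and 359 in lamin A/C KO (0.91 ± 0.21, adjusted p = 0.0061). Kif22, a chromosome-arm kinesin, differed by 0.91 ± 0.22, Incenp, the scaffold of the Aurora B complex, by 1.03 ± 0.32 with a dim second probe set at -0.18, and Bub3, of the spindle checkpoint, by 0.64 ± 0.16. The arrays of the knockouts did not overlap for Fen1, Uhrf1, Lig1 or Plk1. The median over the whole replication list was 0.311, 0.382 and 0.303 on emerin KO replicates 1, 2 and 3. Over mitosis it was 0.196, 0.236 and 0.179. The called genes alone were smallest on replicate 2, the array of lowest Gapdh ratio. Their medians on replicates 1, 2 and 3 were 0.79, 0.691 and 0.903 for replication and 0.698, 0.551 and 0.768 for mitosis. Replicate 2 was nearest to lamin A/C KO for 9 of 11 and 8 of 10 genes, against 68.8% of all called higher genes. Summed over the list, the replication signal was 33361 to 35182 on the emerin KO arrays, against 23165 to 25225 on the lamin A/C KO arrays. With the Gapdh ratio as a covariate or with replicate 2 as the only emerin KO array, 0 members of either list were called. The medians were 0.384 and 0.382 for replication and 0.171 and 0.236 for mitosis.

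Upstream of replication, in the Rb/E2F control of entry into the cell cycle, 3 of 25 measured genes were higher and 2 lower, with a median of 0.07. These shares, 12% and 8%, lay near those of all genes tested (8.4% and 8.02%). Ccnd1, the cyclin D that starts phosphorylation of the retinoblastoma protein, had 3982, 3179.8 and 3838 in emerin KO, against 1461, 1524 and 1247 in lamin A/C KO (1.36 ± 0.21, adjusted p = 0.00027, limma), with no overlap. On emerin KO replicate 2 Ccnd1 differed by 1.16. With the Gapdh ratio as a covariate it differed by 1.10 and was not called (adjusted p = 0.32, limma). Cdk2, the kinase of the G1 to S step, differed by 0.56 ± 0.19 (adjusted p = 0.0497). Tfdp1, the partner of E2F factors, differed by -0.64 ± 0.19, and E2f6, a repressing E2F, by -0.67 ± 0.19.

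Among genes of satellite cells and myoblasts, 6 of 33 were higher and 2 lower (18.2% and 6.06%), with a median of 0.18. Cdh15, the M-cadherin by which satellite cells attach to the fiber, had 1343, 1397 and 1413 in emerin KO, against 846, 755 and 769 in lamin A/C KO (0.79 ± 0.14, adjusted p = 0.00096, limma). Notch3, a receptor of the Notch pathway, had 2511, 2272 and 1936 in emerin KO, against 1574, 1269 and 1264 in lamin A/C KO (0.70 ± 0.15). Cd34, a surface protein of satellite and endothelial cells, had 1431, 1560.2 and 1389.5 in emerin KO, against 1170.5, 761 and 794 in lamin A/C KO (0.69 ± 0.15). These genes did not overlap between the knockouts. Hes1, a target of Notch, had 779, 432 and 883 in emerin KO, against 363, 475 and 316 in lamin A/C KO (0.77 ± 0.23, adjusted p = 0.025). Here the arrays overlapped, with replicate 2 among the lamin A/C KO values. Myod1, the transcription factor that commits cells to muscle, named after its value was seen, had 2592, 2423 and 2846 in emerin KO, against 1757, 1878 and 1556 in lamin A/C KO (0.59 ± 0.14, adjusted p = 0.0073). On replicate 2 the 6 higher genes had a median of 0.685, against 0.718 and 0.667 on replicates 1 and 3.

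Alpha, gamma and delta subunits of the fetal acetylcholine receptor were higher in emerin KO muscle. The receptor of the neuromuscular junction is spread over young and denervated fibers with a gamma subunit (Chrng), beside alpha (Chrna1), beta and delta (Chrnd) subunits. Basic helix-loop-helix factors such as MyoD switch these genes on through the sequence CANNTG, the E-box. Windows from 250 bases before to 50 after the start of the 2 genes the RefSeq promoter table holds are shown because both genes rose and the table allows the E-boxes to be marked, in capitals. The build is GRCm38.p6, with Chrna1 at chr2:73580289-73580588 on the minus strand and Chrng at chr1:87205561-87205860 on the plus strand.
Chrna1: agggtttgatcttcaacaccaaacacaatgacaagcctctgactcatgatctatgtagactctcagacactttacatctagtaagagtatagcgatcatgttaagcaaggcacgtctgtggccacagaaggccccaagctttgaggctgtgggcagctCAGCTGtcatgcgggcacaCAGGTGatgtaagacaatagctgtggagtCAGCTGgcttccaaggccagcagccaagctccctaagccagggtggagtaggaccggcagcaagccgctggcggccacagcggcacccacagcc
Chrng: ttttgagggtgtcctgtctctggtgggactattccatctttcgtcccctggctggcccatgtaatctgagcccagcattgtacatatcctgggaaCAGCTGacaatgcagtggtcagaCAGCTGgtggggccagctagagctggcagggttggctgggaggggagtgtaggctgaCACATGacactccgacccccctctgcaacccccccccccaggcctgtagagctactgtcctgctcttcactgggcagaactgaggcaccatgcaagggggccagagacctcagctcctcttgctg
Each window holds 3 matches to CANNTG, which reads the same on both strands, and 2 of the 3 in each are CAGCTG. Of 32851 promoter windows of this length, 72.3% hold at least 1 CANNTG, 16.3% at least 1 CAGCTG and 1.9% at least 2. A match is a description of the letters only. Chrng had 3818, 3019 and 5334 in emerin KO, against 2129, 1462 and 1416 in lamin A/C KO (1.25 ± 0.27, adjusted p = 0.0036, limma). Chrna1 had 7109, 7525 and 8265 in emerin KO, against 6011, 5154 and 4777 in lamin A/C KO (0.52 ± 0.13, adjusted p = 0.0102). Chrnd had 153, 203 and 173 in emerin KO, against 25.5, 106 and 23.9 in lamin A/C KO (1.44 ± 0.33, adjusted p = 0.0051); 2 lamin A/C KO arrays of Chrnd lay under the minimum. No array of one knockout overlapped the other for the 3 genes. The beta subunit Chrnb1 did not pass (0.39, adjusted p = 0.19). The dimmer probe sets of Chrng differed by -0.16 and -0.05 (adjusted p = 0.79 and 0.96). On emerin KO replicate 2 alone Chrnd differed by 1.63 and Chrng by 0.87, with adjusted p = 0.197 and 0.41.

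The 27 measured genes of embryonic and regenerating muscle share these subunits. Of them 4 were higher and 2 lower (14.8% and 7.41%, against 8.4% and 8.02% of all genes tested), with a median of 0.09. Sln, sarcolipin, an inhibitor of the calcium pump of the sarcoplasmic reticulum that is abundant in young muscle, went the other way. It had 1264, 1719.9 and 964 in emerin KO, against 3992, 4917 and 5279 in lamin A/C KO (-1.85 ± 0.19, adjusted p = 4.2e-06, limma), with no overlap. The embryonic and neonatal myosins Myh3 and Myh8, named after their values were seen, differed by 0.23 (adjusted p = 0.61) and 0.36 (adjusted p = 0.18). Of 25 genes of denervation and atrophy 5 were higher and 0 lower (20% and 0%), and 3 of the 5 were the receptor subunits.

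Slow-fiber genes were higher in emerin KO than in lamin A/C KO muscle, and the slow myosin chains lay below control in both. Of 15 measured genes 6 were higher and 1 lower (40% and 6.67%), and the median was 0.47. Myh7, the slow myosin heavy chain, had 272, 281 and 153 on the emerin KO arrays, 117, 110.2 and 124 on the lamin A/C KO arrays and 1066 and 617 on the control arrays (0.80 ± 0.22 between the knockouts, adjusted p = 0.017, limma). Myl3, the slow light chain, had 157, 154 and 121 on the emerin KO arrays, 67.1, 43.4 and 73.2 on the lamin A/C KO arrays and 660.0 and 399 on the control arrays, and was at least 1.44-fold higher in emerin KO than in lamin A/C KO (adjusted p = 0.017). For both, each emerin KO array lay above every lamin A/C KO array and below both control arrays. Against the same 2 control arrays, Myh7 differed by -1.70 ± 0.25 in emerin KO and -2.50 ± 0.25 in lamin A/C KO. Myl2, a slow regulatory light chain named after its value was seen, did not pass between the knockouts (0.71 ± 0.35, adjusted p = 0.18) and differed from control by -1.52 ± 0.39 in emerin KO and -2.24 ± 0.39 in lamin A/C KO. Tnnc1, the slow troponin C, had 9842, 8017 and 13888 in emerin KO, against 6041, 6168 and 7035 in lamin A/C KO (0.69 ± 0.19). Fhl1, a LIM domain protein of the sarcomere whose gene is also mutated in Emery-Dreifuss muscular dystrophy, was the member that fell. It had 4046, 4865 and 2028 in emerin KO, against 7236, 6649 and 7690.4 in lamin A/C KO (-1.06 ± 0.24, adjusted p = 0.0051). The list's median was 0.288 on emerin KO replicate 2 and 0.579 and 0.359 on replicates 1 and 3. No member was called with replicate 2 as the only emerin KO array.

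Among genes of mature fast fibers more were called lower than higher. Of 30 measured, 5 were lower and 1 higher (16.7% and 3.33%, against 8.02% and 8.4% of all genes tested), with a median of -0.03. Myl1, the light chain of fast myosin, had 6407, 11120.5 and 3968 in emerin KO, against 13957, 16227 and 14667 in lamin A/C KO (-1.18 ± 0.24, adjusted p = 0.0021, limma). The Z-disc proteins Pdlim3 and Myot differed by -1.04 ± 0.18 and -1.001 ± 0.25, and Smpx, a small costameric protein, by -0.97 ± 0.20. All 5 lower genes had their highest emerin KO value on replicate 2, and their median was -0.79, -0.458 and -1.68 on replicates 1, 2 and 3. Replicate 2 was the nearest to lamin A/C KO for 84.7% of all called lower genes.

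Macrophage genes moved in both directions. Of 43 measured, 8 were higher and 3 lower (18.6% and 6.98%), with a median of 0.13. The summed signal of the list was 152228 to 167298 in emerin KO and 139809 to 170773 in lamin A/C KO. After Arg1, the largest rises were in Ly86 and Laptm5. Ly86, which encodes MD-1, the partner of the receptor RP105, had 2823, 3026 and 3613 in emerin KO, against 843, 1192 and 1067 in lamin A/C KO (1.59 ± 0.23, adjusted p = 0.000201, limma). Laptm5, a lysosomal protein of blood cells, had 4402, 4121 and 5551 in emerin KO, against 1681, 1182 and 2151 in lamin A/C KO (2.83-fold, adjusted p = 0.000201). Cybb, the catalytic subunit of the phagocyte oxidase, fell, with 269, 315 and 179.6 in emerin KO, against 554, 632 and 510.4 in lamin A/C KO (-1.08 ± 0.29, adjusted p = 0.013). The defining markers did not all move alike: Cd68 and Csf1r were higher (0.53 ± 0.16 and 0.38 ± 0.13), while Adgre1, the gene of F4/80, and C1qa did not pass (-0.37 ± 0.19 and 0.21 ± 0.13). The 8 higher genes had a median of 0.971, 0.958 and 0.933 on emerin KO replicates 1, 2 and 3, nearly the same on every array. With the Gapdh ratio as a covariate, Arg1, Ly86, Laptm5 and Cybb differed by 0.53, 1.21, 0.87 and -0.33. None of these stayed called (adjusted p = 0.90, 0.32, 0.43 and 0.95, limma). On replicate 2 alone Ly86 differed by 1.53 (adjusted p = 0.054) and Laptm5 by 1.33 (adjusted p = 0.079).

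Among other immune genes, 4 of 38 chemokines and cytokines were higher and 1 lower (10.5% and 2.63%). Pf4, a chemokine of platelets and macrophages, had 6833, 6309.6 and 6874 in emerin KO, against 4042, 3173 and 3492 in lamin A/C KO (0.90 ± 0.14, adjusted p = 0.00036, limma). Ccl6 had 2101, 2973 and 2652 in emerin KO, against 1186, 937 and 1249 in lamin A/C KO (1.17 ± 0.27). Ccl9 differed by 0.85 ± 0.23, with a dimmer probe set at -1.21 (adjusted p = 0.047). Ccl3, which attracts monocytes, had 82.9, 129 and 663 in emerin KO, against 34.7, 12.8 and 128 in lamin A/C KO, which overlap, with the highest value on emerin KO replicate 3 (1.58 ± 0.53). In presentation by MHC class II, 3 of 14 were higher and 0 lower (21.4% and 0%, against 8.4% and 8.02% of all genes tested). Cd74, the invariant chain, had 6182, 5728 and 6672 in emerin KO, against 3826, 4683 and 3174 in lamin A/C KO (0.68 ± 0.18). The class II chain H2-Aa differed by 0.84 ± 0.26 and H2-DMa, which loads peptides, by 0.62 ± 0.18. Of 33 interferon-response genes 1 was higher (3.03%), Bst2 (tetherin, 1.41 ± 0.26), and 1 lower (3.03%), Ifih1 (the RNA sensor MDA5, -0.78 ± 0.23). Of 14 neutrophil genes 0 passed in either direction (limma, with 2 higher and 0 lower at an unadjusted p under 0.05). Their median was 0.39, with 11 genes upward and 3 downward. On emerin KO replicates 1, 2 and 3 the list's median was 0.15, 0.143 and 0.627. The markers S100a8 and S100a9 differed by 0.60 ± 0.43 and 0.90 ± 0.45 and did not pass. Among others, 2 of 21 lymphocyte genes were higher and 0 lower, and 2 of 21 endothelial genes were higher and 1 lower, shares close to those of all genes tested or under them.

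Genes of mitochondrial respiration were low in emerin KO muscle, most of all on the arrays of high Gapdh ratio. Of 61 measured genes of oxidative phosphorylation 17 were lower and 2 higher (27.9% and 3.28%), with a median of -0.22. Ndufs4, a subunit of complex I, had 444, 792 and 322 in emerin KO, against 1183, 1486 and 1343 in lamin A/C KO (-1.40 ± 0.22, adjusted p = 0.00034, limma). Sdhd, the membrane anchor of complex II, had 1087, 1872 and 633 in emerin KO, against 2972, 2345 and 3284 in lamin A/C KO (-1.35 ± 0.27). Atp5j, of the ATP synthase, had 2048, 2794 and 1609 in emerin KO, against 4850.3, 5185 and 4741 in lamin A/C KO (-1.22 ± 0.19). Uqcrfs1, the Rieske protein of complex III, differed by -1.14 ± 0.23. In each, replicate 2 lay above the other emerin KO arrays and below every lamin A/C KO array. The margin was narrow for Uqcrfs1, at 2351 against the lowest lamin A/C KO value of 2373. Dimmer probe sets of Ndufs4 and Sdhd differed by 0.43 and 0.26 and did not pass. The median of the whole list was -0.245, -0.0776 and -0.294 on replicates 1, 2 and 3. Replicate 2 was the nearest to lamin A/C KO for 16 of the 17 lower genes, against 84.7% of all called lower genes. With replicate 2 as the only emerin KO array or with the Gapdh ratio as a covariate, 0 members were called.

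The proteasome list behaved in the same way on the 3 arrays. Of 34 measured genes 12 were lower and 4 higher (35.3% and 11.8%), with a median of -0.08. Psmd7, a lid subunit, had 388, 623 and 322 in emerin KO, against 879.7, 973 and 982 in lamin A/C KO (-1.09 ± 0.18, adjusted p = 0.00058, limma). Psmd6 differed by -1.07 ± 0.18 and the base ATPase Psmc6 by -1.07 ± 0.18. The base subunit Psmd2 had 4705, 3841 and 7116 in emerin KO, against 2471, 2043 and 2269.8 in lamin A/C KO (1.15 ± 0.22, adjusted p = 0.0014). For all 12 lower and all 4 higher genes replicate 2 was the emerin KO array nearest to lamin A/C KO. It was so for 84.7% of all called lower genes and 68.8% of all called higher ones. The list's median was -0.107, 0.00443 and -0.189 on replicates 1, 2 and 3. Members of 1 complex thus moved in opposite directions, and 0 were called with replicate 2 as the only emerin KO array or with the Gapdh ratio as a covariate. In glycolysis and glycogen metabolism, 5 of 29 were higher and 4 lower (17.2% and 13.8%). Gyg, the primer protein of glycogen, had 293, 548 and 136 in emerin KO, against 1238, 1003 and 1062 in lamin A/C KO (-1.83 ± 0.28). Ugp2, which makes UDP-glucose, differed by -0.91 ± 0.17. The liver-type phosphofructokinase Pfkl differed by 1.01 ± 0.29 and the glycogen synthase Gys1 by 0.92 ± 0.17, with a dimmer Gys1 probe set at -1.31 (adjusted p = 0.036). Among 48 genes of RNA splicing and processing 11 were higher and 5 lower (22.9% and 10.4%), led by Snrnp70, of the U1 particle (1.29 ± 0.17), and by the splicing regulator Mbnl1 (-1.26 ± 0.22), Rbm39 (-0.92 ± 0.23) and the helicase Ddx5 (-0.89 ± 0.21). Other probe sets of Rbm39 rose, 3 of them past the threshold (0.68, 0.96 and 1.01). Those of Ddx5 differed by 0.02 to 0.31, so for these genes the direction depended on the probe set. In the lists of the cytosolic ribosome, 3 of 44 were higher and 4 lower, in amino acid and ER stress 3 of 39 and 4, and in cytosolic heat shock 2 of 24 and 3. In p53 targets 2 of 22 and 1, in immediate early and MAPK genes 1 of 33 and 2, and in the circadian clock 1 of 19 and 1. In Schwann cell, keratinocyte and erythroid genes 1 of 13, 1 of 10 and 1 of 6 were higher and 0 lower. Of 4 sex-linked genes 1 was lower and 0 higher. Of all genes tested 8.4% were higher and 8.02% lower.

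**Figure D4:**
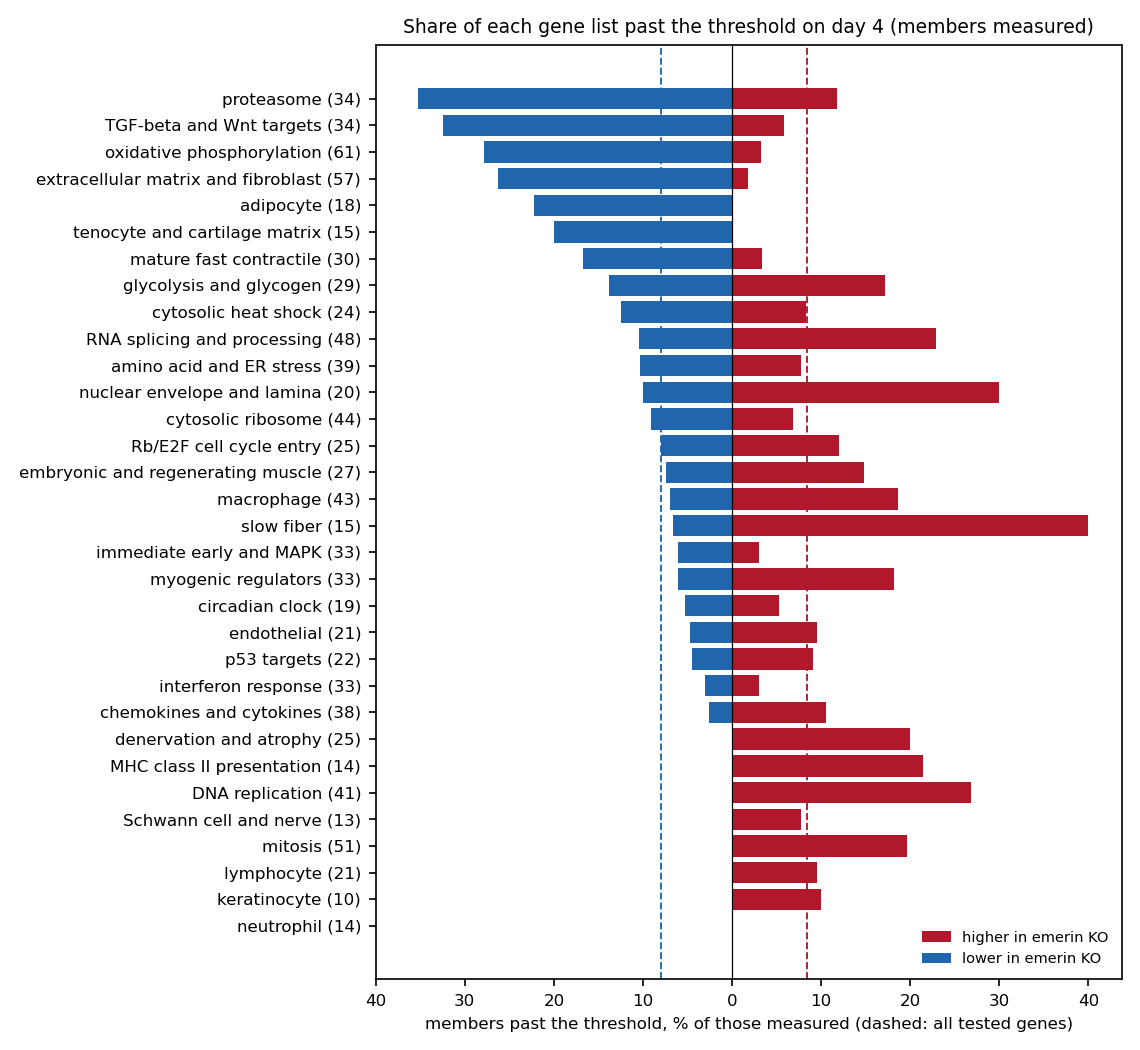
Percent of the measured members past the threshold in each gene list with at least 10 of them, on day 4, higher in emerin KO to the right (red) and lower to the left (blue), with the number measured in parentheses and the shares of all tested genes (8.4% and 8.02%) dashed. Matrix, TGF-beta and Wnt, respiration and proteasome lists reach past the line on the left, and slow-fiber, DNA replication and mitosis lists on the right.

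**Figure D5:**
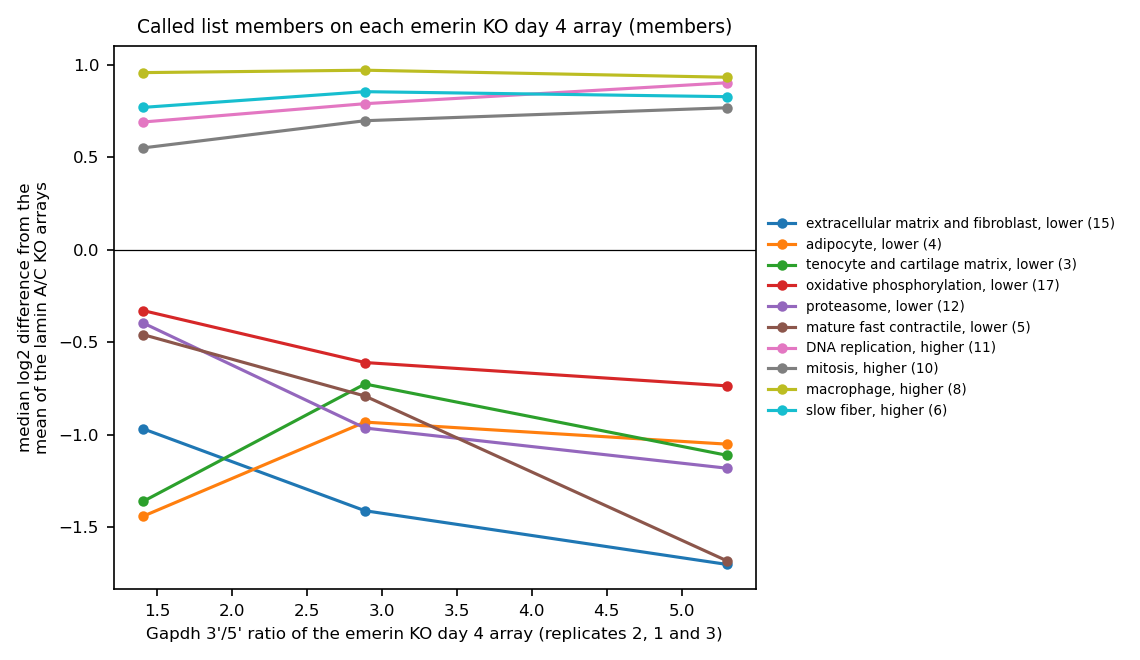
Median log2 difference from the lamin A/C KO mean (vertical axis) of the called members of 10 lists on each emerin KO day 4 array, placed by the array's Gapdh 3'/5' ratio (horizontal axis: replicates 2, 1 and 3), each line 1 list in 1 direction, as its legend names. The lines of the higher macrophage and slow-fiber genes are nearly level, the lines of the lower adipocyte and tenocyte genes are farthest from 0 at the lowest ratio, and those of the lower oxidative phosphorylation, proteasome and fast contractile genes move away from 0 as the ratio rises.

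Across the 3 emerin KO arrays the gene groups thus fell into different patterns. The lower genes of the matrix, respiration, proteasome and fast-fiber lists were, by their medians, nearest to lamin A/C KO on replicate 2, whose Gapdh ratio was 1.40. The called tendon genes had a median of -1.36 on replicate 2, against -0.725 and -1.11 on replicates 1 and 3, and the called adipocyte genes -1.44, against -0.931 and -1.05. These medians are of genes called with all 3 arrays and describe the arrays only.

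A set of 12 genes was called in the comparison as it stands, when the Gapdh ratio entered the model, and when replicate 2 was the only emerin KO array, a criterion chosen after the values were seen. The third of these calls rests on 1 emerin KO array, with its spread borrowed from the other groups. Higher in emerin KO were Lmna, Alpk3, Fcrls and Ncapg2, and lower were Adipoq, Aspn, Cap1, Car3, Gdpd3, Glo1, Serinc1 and Sox11. Fcrls, an Fc receptor-like scavenger receptor of macrophages, had 1517, 1888 and 1887 in emerin KO, against 492, 739 and 518 in lamin A/C KO (1.56 ± 0.17, adjusted p = 6.2e-06, limma), and 771 and 802 in control. Ncapg2, a subunit of condensin II, which compacts chromosomes, had 622, 1069 and 424 in emerin KO, against 223, 238 and 190.5 in lamin A/C KO (1.47 ± 0.25). Sox11, a transcription factor of embryonic and regenerating tissue, had 233, 235 and 218 in emerin KO, against 636, 816 and 775 in lamin A/C KO (-1.56 ± 0.16), below both control values of 1097 and 983. Each of these genes parted the 2 knockouts without overlap. Glo1, the glyoxalase that clears methylglyoxal, had 786, 797 and 470.4 in emerin KO, against 2392, 2639.9 and 2753 in lamin A/C KO (-1.91 ± 0.16). Serinc1, a membrane protein of serine incorporation, had 552, 694 and 554 in emerin KO, against 1721, 1839 and 2079.7 in lamin A/C KO (-1.60 ± 0.15). Over the 12 genes the differences with the covariate lay between -2.65 and 5.24. The same sign as in the comparison as it stands was part of the criterion and is not a further result.

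The same contrast on the other days shows which differences were there on day 0. On day 0, 236 genes were higher and 467 lower in emerin KO (2.11% and 4.18%, together 6.3%). On day 3 the counts were 442 and 669 (3.96% and 5.99%, together 9.95%). Of the 938 genes higher on day 4, 260 were also called higher on day 3 and 55 on day 0, and of the 895 lower, 422 and 106. Gdpd3 differed by -4.44 ± 0.21 on day 0, -1.83 ± 0.19 on day 3 and -2.73 ± 0.19 on day 4 (limma, adjusted p = 1.2e-11 on day 0). Glo1 differed by -1.33 ± 0.18, -1.45 ± 0.16 and -1.91 ± 0.16. Alpk3 was higher on each day, by 1.45 ± 0.21, 1.21 ± 0.19 and 1.69 ± 0.19, and Cap1 lower, by -1.27 ± 0.19, -2.59 ± 0.17 and -2.50 ± 0.17. These genes parted the knockouts on all 3 days. The Gapdh ratio of day 0 was 0.914 to 1.34 in emerin KO and 0.852 to 0.963 in lamin A/C KO. That of day 3 was 3.62 to 6.09 in emerin KO and 1.21 to 1.64 in lamin A/C KO. Cd5l, Aoah and Fcrls did not pass on day 0 (0.13 ± 0.24, -0.36 ± 0.43 and 0.13 ± 0.19) and were higher on day 3 (1.76 ± 0.22, 2.07 ± 0.38 and 1.57 ± 0.17). Adipoq differed by 0.55 ± 0.24 on day 0 (adjusted p = 0.201), -0.71 ± 0.21 on day 3 (adjusted p = 0.037) and -2.05 ± 0.21 on day 4.

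The day 4 difference was tested against that of day 0 gene by gene, and 699 genes passed, 393 with a more positive and 306 with a more negative difference on day 4 (3.52% and 2.74%, together 6.26%). Beside Lmna, the largest positive shifts were in Tnfrsf12a, the receptor of the cytokine TWEAK, Kcne1l, an accessory subunit of potassium channels, Olfm1, a secreted glycoprotein of neurons, and Zfp385a, a zinc finger protein. Kcne1l lay under the minimum on all 6 arrays of day 4. Tnfrsf12a averaged 141 in emerin KO and 2149 in lamin A/C KO on day 0, and 826 in emerin KO and 1317 in lamin A/C KO on day 4. This was a shift of 3.03 ± 0.37 (adjusted p = 4.3e-05, limma), so that the gap of day 0 was narrower on day 4, where it did not pass (-0.66, adjusted p = 0.069). Lmna itself averaged 682 in emerin KO on day 0 and 4224 on day 4, and stayed under the minimum in lamin A/C KO on both days. The most negative shifts were in Serf1 (-3.42 ± 0.68), Pla2g7, the platelet-activating factor hydrolase of macrophages (-2.88 ± 0.32), Med21 (-2.69 ± 0.67), Adipoq (-2.60 ± 0.32) and Pdzrn3, a ubiquitin ligase of muscle (-2.43 ± 0.38). Pla2g7 averaged 492 in emerin KO and 159 in lamin A/C KO on day 0, and 676 in emerin KO and 1869.6 in lamin A/C KO on day 4, and so changed direction. By list, 14 of 27 genes of embryonic and regenerating muscle shifted upward past the threshold and 0 downward. Their median difference was -1.10 on day 0, -0.36 on day 3 and 0.09 on day 4. Of the 57 matrix genes 14 shifted upward and 2 downward, with medians of -0.90, -0.38 and -0.21 on the 3 days. Of the 51 mitosis genes 12 shifted upward and 0 downward, with medians of -0.40, 0.15 and 0.24. All 4 adipocyte genes that shifted went downward. Chrng and Chrna1 crossed over: they differed by -1.13 ± 0.30 and -1.30 ± 0.15 on day 0 and were higher on day 4, shifts of 2.38 ± 0.40 and 1.83 ± 0.20.

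Against day 3, the day 4 difference changed past the threshold for 3 genes, 2 upward and 1 downward (0.0179% and 0.00896%, together 0.0269%). At an unadjusted p under 0.05 there were 711 (6.37%). Myh8, the neonatal myosin heavy chain, averaged 493 in emerin KO and 1132 in lamin A/C KO on day 3, and 3361 in emerin KO and 2600.1 in lamin A/C KO on day 4. This was a shift of 1.53 ± 0.25 (adjusted p = 0.029, limma). Itgb1bp2, melusin, a muscle protein that binds integrin, shifted by 1.28 ± 0.20, and Car3 by -1.47 ± 0.25. Car3 averaged 3928 in emerin KO and 3451 in lamin A/C KO on day 3, and 2459.6 in emerin KO and 6009 in lamin A/C KO on day 4. Between the knockouts Myh8 passed on day 3 (-1.17 ± 0.18) and not on day 4 (0.36 ± 0.18), and Car3 passed on day 4 (-1.30 ± 0.18) and not on day 3 (0.17 ± 0.18).

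Set beside the 2 control arrays of day 4, which both contrasts share, the emerin KO arrays gave 288 higher and 367 lower genes (2.58% and 3.29%, together 5.87%). The lamin A/C KO arrays gave 0 higher and 5 lower (0% and 0.0448%, limma). At an unadjusted p under 0.05 they gave 540 (4.84%). The 5 genes lower in lamin A/C KO were Lmna, Myl3, Myh7, Myl2 and Cd5l. The controls are named as those of the lamin A line. Their Gapdh ratio averaged 1.08, against 0.861 in lamin A/C KO and 3.20 in emerin KO on day 4. The part of the line and of the ratio in these counts was not tested. Cd5l had 549, 487 and 671 in emerin KO, 105, 124 and 119 in lamin A/C KO and 449 and 319.9 in control. The arrays without lamin A/C stood apart (-1.48 ± 0.24 from control, against 0.54 ± 0.24 for emerin KO). The control mean lay between those of the knockouts for 748 of the 938 higher genes and 718 of the 895 lower genes. These genes were chosen for a difference between the knockouts, which favors a control mean in between. The share over all genes was not counted. Emerin KO passed against control in the direction of the difference for 219 and 304 of them, and lamin A/C KO in the opposite one for 4 and 0. For 715 and 591 neither did. Aspn differed from control by -2.23 ± 0.23 in emerin KO and 0.37 ± 0.23 in lamin A/C KO, Ly86 by 1.70 ± 0.26 and 0.11 ± 0.26, and Adipoq by -1.41 ± 0.24 and 0.64 ± 0.24. Serinc1 differed by -0.97 ± 0.17 and 0.64 ± 0.17, with control between the knockouts. For Gdpd3, Cap1 and Hal the lamin A/C KO arrays did not pass against control (0.20, 0.13 and 0.10 on the log2 scale).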

How the data were processed

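RNA of gastrocnemius muscle was measured on 23 Affymetrix arrays of 9 groups, assigned by the labels. The authors deposited MAS5 signals, that is intensity values on a linear scale, per the submitters' processing notes; the version was not given in the sources used here. The deposited arrays had trimmed means of 150.04 to 150.06. Here signals were rescaled to a trimmed mean of 500 (2% left off each end), and log2(signal + 32) was taken, so fold changes of dim genes are understated.

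Of 22690 probe sets, 64 were controls, 20380 had 1 gene symbol, 691 several and 1555 none. Each of 12393 genes was read by its brightest probe set. Tests covered the 11164 genes that reached a signal of 100 on 2 arrays or more, with limma 3.58.1 in R 4.3.3 (lmFit, and eBayes with an intensity trend), with all 9 groups in 1 model and Benjamini-Hochberg adjustment, at a threshold of 0.05. Errors after ± are standard errors of log2 differences. No arrays held identical values. A fold against a group wholly under 100 was computed against the minimum. On simulated data with 200 changed genes among 11164, the day 4 comparison recovered 66% of 2-fold and 99% of 4-fold changes, with 17 false calls. The simulated noise was independent between genes, with the same spread in every group and no shift tied to the 3'/5' ratio. It therefore cannot say how many calls of the real comparison are false.

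Named were the 12 largest rises and 12 largest falls without overlap, Emd and Lmna, up to 4 called genes a list, and up to 5 genes in each direction for the changes between days. Others are marked as chosen after their values were seen. Of 1092 list symbols 962 matched a gene. Members and lists were chosen with earlier results of these data known. Alternatives covered scaling, pseudocount, filter, probe sets, trend, weights, the 3'/5' ratios as covariates, the replicate block and each array left out. Promoter windows are from RefSeq (GRCm38.p6). Figures were drawn with matplotlib 3.10.9.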

Additional observations from a re-analysis of the deposited data

Results flagged for a closer look

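The difference between emerin KO and lamin A/C KO muscle was not the same on every day, and the test of that change is what singled out the results below (limma, log2 difference of day 4 minus that of an earlier day). Against day 0, 699 genes changed, and among the genes named in the text these are given with the size of the change. The largest upward changes were Tnfrsf12a 3.03, Kcne1l 2.90, Olfm1 2.76, Lmna 2.64, Zfp385a 2.60, Cort 2.47, Myh8 2.44, Aoah 2.42, Chrng 2.38, Kif22 2.03 and Incenp 2.02. Smaller ones were Cd5l 1.89, Sln 1.84, Chrna1 1.83, Id4 1.74, Gdpd3 1.71, Laptm5 1.69, Bst2 1.65, Snrnp70 1.45, Fcrls 1.43, Plk1 1.41 and Ccl6 1.36, and Rap2b 1.36, Cdh15 1.32, Ly86 1.31, Ccnd1 1.30, Uhrf1 1.30, Psmd2 1.30, Ncapg2 1.29, Cd34 1.18, Bub3 1.07 and H2-DMa 1.01. The largest downward changes, starting with the most negative, were Serf1 -3.42, Pla2g7 -2.88, Med21 -2.69, Adipoq -2.60, Pdzrn3 -2.43, Scd1 -2.13, Mpc1 -2.02, Gyg -1.95, Car3 -1.59, Acvr1 -1.45 and Serinc1 -1.40. Smaller downward ones were Itm2a -1.37, Mbnl1 -1.26, Cap1 -1.23, Ndufs4 -1.20, Aspn -1.18, Uqcrfs1 -1.17, Ddx5 -1.17, Atp5j -1.16, E2f6 -1.04, Ugp2 -1.01, Pdlim3 -0.88 and Sox11 -0.83. Upward changes took in subunits of the fetal acetylcholine receptor, macrophage genes and genes of mitosis, and downward ones the fat genes Adipoq, Scd1 and Car3. Against day 3, 3 genes changed: Myh8 by 1.53, Itgb1bp2 by 1.28 and Car3 by -1.47. Gapdh 3'/5' ratios of emerin KO arrays were 0.914 to 1.34 on day 0, 3.62 to 6.09 on day 3 and 1.40 to 5.30 on day 4, and their part in these changes was not tested. Single arrays were not checked for standing apart, since each group holds 2 or 3 arrays.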

How the results depend on the processing

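Counts of calls moved with the settings as follows, and the cause was not tested. The 938 higher and 895 lower genes of day 4 became 2538 and 1732 with array weights, 5 and 8 when the Gapdh ratio was a covariate, 75 and 88 with the Actb ratio, 13 and 26 without both emerin KO arrays of high ratio, and 16 and 26 when the emerin KO arrays of day 3 were left out too, a choice made after seeing the data. Leaving out 1 array in turn gave 372 to 1147 higher and 391 to 1196 lower genes, with 471 and 537 without emerin KO replicate 1, 372 and 391 without replicate 3, and 528 and 594 without lamin A/C KO replicate 3; such settings hold fewer arrays. The 699 genes that changed against day 0 became 382 with median scaling, 420 with only the compared groups, 106 and 296 with the Gapdh and Actb ratios, 101 without both arrays of high ratio, and 264 to 1129 with 1 array left out (264 without emerin KO day 0 replicate 2, 1129 without emerin KO day 4 replicate 2, 378 without replicate 3 and 415 without lamin A/C KO day 0 replicate 2). The 3 genes that changed against day 3 became 8 with quantile normalization, 0 with median scaling, without an intensity trend or with only the compared groups, 5 with a pseudocount of 100, 72 with array weights, 14 and 10 with the Gapdh and Actb ratios, 1 without both arrays of high ratio, and 0 to 17 with 1 array left out.

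Among 121 single genes that were called, 8 kept direction and call when the Gapdh ratio was a covariate, 103 lost the call and 10 reversed: Ccl3 to -0.19, Cnp to -0.037, Ddx5 to 0.083, Hes1 to -0.024, Klf10 to 0.081, Mt1 to -0.19, Tfdp1 to 0.12, Tmem38a to 0.37, Tnnc1 to -0.018 and Xbp1 to 0.082. With the mean of all probe sets Ccl9 reversed to -0.18, Dnajb6 to -0.046 and Gys1 to -0.20, and without probe sets shared between transcripts Csnk1d reversed to -0.35, Mt1 to -0.0067 and Sesn1 to -0.55. With the replicate number as a block, 954 genes were higher and 922 lower, 706 changed against day 0 and 3 against day 3, and 119 of the 121 genes kept their call. Same-numbered arrays of the knockouts had residual correlations of -0.0879, -0.114 and 0.0441, so the numbers were not taken as pairs. Of 1833 called genes, 831 had another bright probe set, with a mean signal of at least 100. In 337 of these 831 genes at least 1 such probe set had the opposite sign, and in 59 an opposite one was itself called. Of the 1305 other bright probe sets of called genes, 897 (68.7%) had the same sign, and 278 of these were called. Signals under 100 limit what can be said of dim genes, and 2 or 3 arrays a group limit the precision.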
